A study of Mus musculus with 12 samples.

Results

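The major urinary protein (Mup) genes were followed across RNA-seq libraries of 12 mouse livers. They are the 10 symbols Mup1, Mup2, Mup3, Mup8, Mup9, Mup10, Mup13, Mup14, Mup20 and Mup22, which label 13 of the 27304 rows of the deposited count table. The symbol Mup13 stands on 4 rows, whose Ensembl IDs (ENSMUSG00000089873, ENSMUSG00000078675, ENSMUSG00000096688 and ENSMUSG00000078673) are named Mup13, Mup16, Mup17 and Mup19 in GENCODE release M21, and those names are used here. The rows were taken by symbol, and all 13 passed the filter on low counts that left 13641 genes for testing. The family was chosen because its genotype differences in these same libraries were known. The genotype differences of the Mup rows are therefore given as descriptions without a test. Tests are kept for the sex differences and for the difference between the genotype effects of the sexes. These tests use the same libraries, so they are not independent of the known genotype differences within each sex.

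The 4 groups were Ahr-null males (Apoe-/-AhR-/-), Ahr-null females, control males (Apoe-/-) and control females, with 3 livers in each. Every mouse lacked Apoe, and every mouse had been fed a diet labelled HFD for 12 weeks. How the Apoe and Ahr alleles were made, the strain and the age at the start of the diet are not stated in the sources used here. The labels give 1 liver per sample, so p-values measure the spread between these livers.

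Major urinary proteins are small lipocalins that mouse hepatocytes secrete into the blood and that pass into the urine, where they carry volatile pheromones and act as scent signals. Their genes lie in a dense tandem cluster, and in mouse liver many of them are transcribed more in males, under the pulsed male pattern of growth hormone acting through STAT5. Mup20 encodes darcin, the male pheromone that draws females to a male's scent.

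The sequences show why most rows cannot be measured one by one. All 13 rows lie on chromosome 4, on the minus strand, within the 1.951 Mb at chr4:60135932-62087342 (GRCm38, GENCODE M21), and each has a transcript of 7 exons with a coding region of 540 to 552 bases. Among 11 of the rows the coding regions were 98.16 to 99.81% identical, a difference of 1 to 10 bases. Mup20 was 90.24 to 91.16% identical to those 11, Mup3 was 82.52 to 83.6% identical to them, and Mup20 and Mup3 shared 87.0% of their bases. The 60 coding bases where Mup20 differs most from Mup10 are printed below from the GENCODE transcripts, 5′ to 3′, with capitals marking the bases that differ from Mup10. The stretch lies in exon 2 of each gene, at chr4:60581539-60581598 in Mup10, chr4:60501300-60501359 in Mup1, chr4:62086818-62086877 in Mup3 and chr4:62053498-62053557 in Mup20.
Mup10: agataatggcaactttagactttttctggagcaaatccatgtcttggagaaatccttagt
Mup1: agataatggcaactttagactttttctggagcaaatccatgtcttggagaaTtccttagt
Mup3: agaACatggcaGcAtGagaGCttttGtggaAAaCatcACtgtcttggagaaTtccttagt
Mup20: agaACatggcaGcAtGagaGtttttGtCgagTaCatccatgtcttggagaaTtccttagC
Mup1 differed from Mup10 at 1 of the 60 bases, Mup3 at 14 and Mup20 at 12.

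Of all 50-base windows of each transcript, 84.39% were found in the transcripts of no other annotated gene for Mup3 and 49.49% for Mup20. For the other 11 rows the share was 0 to 21.87%, and it was 0 for Mup2, Mup19 and Mup22. In windows of 100 bases the shares were 97.06% for Mup3, 61.16% for Mup20 and 0 to 40.58% for the other 11 rows, with 0 for Mup19 and Mup22 and 2.66% for Mup2. At both window sizes, reads of the 11 near-identical rows therefore cannot be told apart by sequence over most of their length, and how the authors' counting placed them is not stated in the sources used here. Below, the 12 rows other than Mup20 are summed and called the Mup group, in which a read may have been counted on more than 1 row, and Mup20 is kept apart. Where a single row of the 11 is named, its value is uncertain as a measure of that gene.

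Promoter sequences from RefSeq (GRCm38.p6) were matched for 7 of the 13 rows (Mup2, Mup3, Mup9, Mup10, Mup14, Mup17 and Mup19) and not for Mup1, Mup8, Mup13, Mup16, Mup20 and Mup22. Identity was taken over all aligned columns, gaps included, and the 250-base windows start at unlike places in the copies. The promoters of Mup2, Mup9, Mup10, Mup17 and Mup19 aligned over 253 to 258 columns and were 90.23 to 96.46% identical to each other. That of Mup3 aligned to them over 299 to 307 columns, at 56.03 to 58.86%. That of Mup14 aligned to those 5 over 296 to 304 columns, at 61.59 to 66.55%. Mup14 and Mup3 aligned over 253 columns, at 78.66%. The lower values thus hold many gap columns, and how far Mup14 or Mup3 differ from the others in sequence was not measured. The 250 bases before the start of Mup10 (chr4:60582156-60582405) and of Mup3 (chr4:62087318-62087567) are shown as examples of the 5 similar promoters and of a more distant one, on the minus strand, 5′ to 3′, with motif matches in capitals.
Mup10: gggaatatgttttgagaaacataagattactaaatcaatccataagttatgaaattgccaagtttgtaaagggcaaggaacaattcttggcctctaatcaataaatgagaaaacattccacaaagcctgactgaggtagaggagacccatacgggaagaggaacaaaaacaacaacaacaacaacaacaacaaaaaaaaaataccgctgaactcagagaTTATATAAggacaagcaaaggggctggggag
Mup3: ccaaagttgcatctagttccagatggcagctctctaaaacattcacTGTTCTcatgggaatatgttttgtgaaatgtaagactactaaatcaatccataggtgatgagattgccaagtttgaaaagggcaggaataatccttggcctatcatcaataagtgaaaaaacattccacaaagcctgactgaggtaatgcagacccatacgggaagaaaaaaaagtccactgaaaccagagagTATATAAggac
Both strands were searched for the STAT5 site TTCNNNGAA, the AHR response element core GCGTG, the palindromic HNF1 consensus site, the glucocorticoid receptor half-site AGAACA, the TATA box TATAAA and the run TATATAA, which was added after these promoters had been read and whose 2 matches in Mup10 overlap. TATATAA was found in 6 of the 7 promoters, all except that of Mup14, against 3.04% of 32851 mouse promoters of the same length. The window of Mup14 ends before the place where the other windows hold this run, so its absence there was fixed by the window. AGAACA was found in Mup3 (on the other strand, as TGTTCT) and in 16.1% of all promoters. None of the 7 windows held TTCNNNGAA, found in 7.02% of all promoters, GCGTG, found in 28.2%, the HNF1 site, found in 0.00913%, or TATAAA, found in 12.4%. This says only that these letters are not in these windows.

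The libraries held 9794253 to 18924880 counts, and the 13 Mup rows took 0.0423 to 3.51% of them. Ahr averaged 22.8 ± 2.33 and 16.5 ± 2.89 CPM in Ahr-null males and females, against 20.2 ± 4.80 and 15.6 ± 3.75 CPM in control males and females (SD, n = 3 each), so its total count did not separate the labelled genotypes. Which exons the allele lacks is not stated in the labels, and this count therefore does not check them. Cyp1a2, a classic AHR target, averaged 123 ± 83.7 and 65.7 ± 31.4 CPM in Ahr-null males and females, against 945 ± 215 and 590 ± 121 CPM in control males and females. Its log2 fold change was -3.05 (adjusted p = 0.00664 by edgeR's quasi-likelihood test), where 1.06% of genes were called, 0.528% in each direction. Cyp1a1, another target, had -2.45 (adjusted p = 0.0148 by the same test). The call of Cyp1a1 was kept without control male replicate 1, Ahr-null male replicate 2 or Ahr-null female replicate 1, and lost without each of the other 9 libraries (adjusted p of 0.0533 to 0.101). Apoe had -0.09. Summed over 25 neuron and glia markers, Ahr-null female replicate 1 had 735 CPM and control male replicate 1 had 448 CPM, against 51.3 to 103 CPM in the other libraries.

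The Mup group was lower in Ahr-null livers of both sexes, while Mup20 was higher in Ahr-null females and overlapped the controls in males. The group sum averaged 6779 ± 6849 CPM in Ahr-null males and 27002 ± 13191 CPM in control males. In females it averaged 355 ± 184 CPM in Ahr-null females and 6324 ± 2507 CPM in control females. Mup20 averaged 2127 ± 580 CPM in Ahr-null males and 2656 ± 378 CPM in control males. In females it averaged 398 ± 254 CPM in Ahr-null females and 77.0 ± 17.7 CPM in control females. CPM are counts scaled to library size with TMM factors, and errors are SD over 3 livers. In whole liver, fewer cells of a type and less RNA per cell cannot be told apart.

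By library, the group sum was 2723, 14686 and 2927 CPM in Ahr-null males, against 41366, 24209 and 15432 CPM in control males. It was 397, 153 and 514 CPM in Ahr-null females, against 5935, 4034 and 9003 CPM in control females. The groups did not overlap in either sex, but Ahr-null male replicate 2 lay just under the lowest control male, far above the other Ahr-null males. On the log2 scale the mean difference was -2.35 in males, a 5.09-fold lower geometric mean, -4.25 in females, a 19.0-fold lower one, and -3.30 averaged over the sexes. Without Ahr-null male replicate 2 the male difference was -3.14, and without the 2 libraries with neural transcripts it was -1.97 in males and -4.40 in females. With Mup3 left out of the sum and all libraries kept, it was -2.41 in males, -4.68 in females and -3.54 averaged over the sexes.

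**Figure D1:**
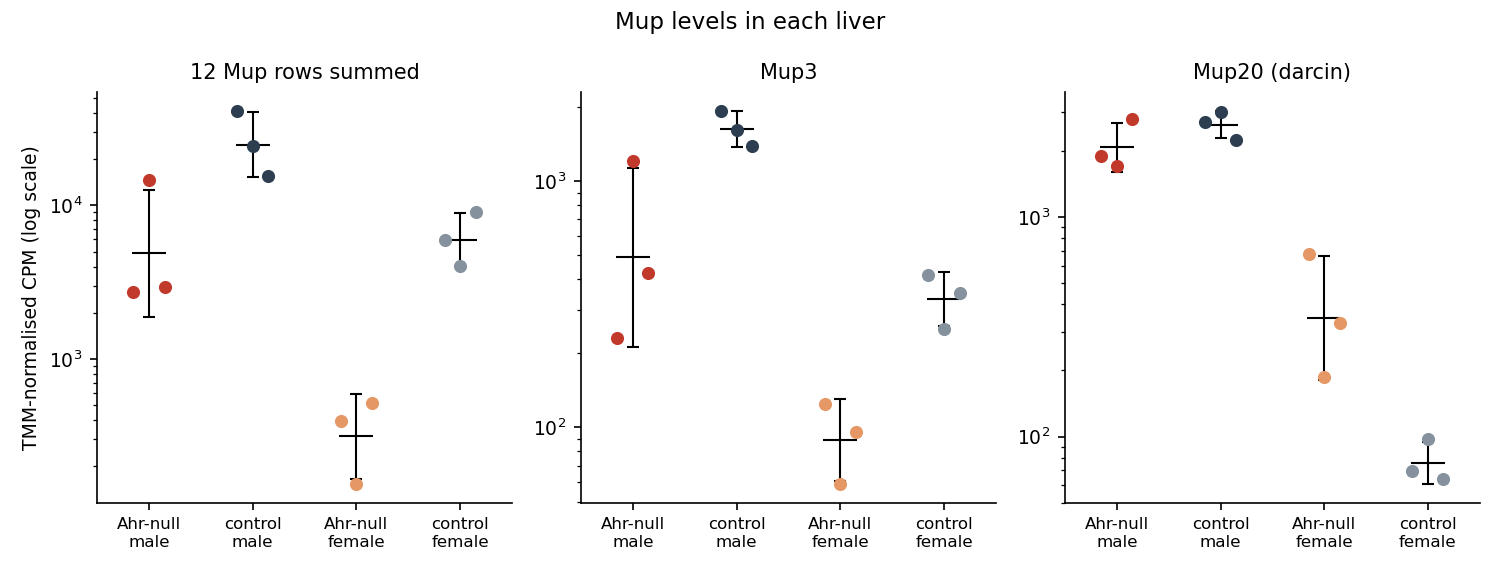
TMM-normalised CPM on a log scale for the sum of the 12 Mup rows other than Mup20, for Mup3 and for Mup20. Points are single livers, and the black line and bars are the mean ± SD of log2 CPM over 3 livers. Ahr-null females lie below control females for the sum and for Mup3 and above them for Mup20, and Ahr-null male replicate 2 (middle point) lies apart from the other Ahr-null males for the sum and for Mup3.

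Mup10, one of the 11 near-identical rows, had 444, 1760 and 500 CPM in Ahr-null males, against 4007, 2607 and 1831 CPM in control males. In females it had 34.3, 12.0 and 69.7 CPM in Ahr-null livers, against 777, 582 and 1132 CPM in control livers. The genotypes did not overlap in either sex. The fitted log2 fold change was -1.64 ± 0.66 in males and -4.42 ± 0.74 in females (SE). Mup1, which differs from Mup10 by 1 base in the stretch printed above, had 63.1, 879 and 39.0 CPM in Ahr-null males, against 3811, 1963 and 1062 CPM in control males. Its 3 values in Ahr-null females were 18.6, 6.25 and 20.1 CPM, against 353, 165 and 651 CPM in control females. Ahr-null male replicate 2 was again far above the other Ahr-null males. The log2 fold change of Mup1 was -2.80 ± 1.03 in males and -4.70 ± 1.13 in females.

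Over the 11 near-identical rows, fitted log2 fold changes ran between -2.98 (Mup9) and -1.59 (Mup22) in males and between -4.96 (Mup17) and -3.90 (Mup16) in females. Mup3, the most distant member in sequence, had 232, 1211 and 425 CPM in Ahr-null males, against 1938, 1616 and 1388 CPM in control males. In females it had 125, 58.9 and 95.6 CPM in Ahr-null livers, against 415, 251 and 351 CPM in control livers. The groups did not overlap in either sex. Its log2 fold changes of -1.40 ± 0.53 in males and -1.86 ± 0.53 in females were the nearest to 0 among the 12 rows of the group.

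Mup20 differed from the group in females. It had 1889, 1704 and 2788 CPM in Ahr-null males, against 2718, 2999 and 2252 CPM in control males, and these groups overlapped. It had 680, 186 and 329 CPM in Ahr-null females, against 70.0, 97.1 and 63.8 CPM in control females, and every Ahr-null female was above every control female. The log2 fold change was 1.03 ± 0.31 averaged over the sexes, -0.32 ± 0.44 in males and 2.37 ± 0.46 in females, the only positive one among the 13 rows in females. With library size alone in place of TMM scaling, the male value was 0.21, so the sign in males depends on the scaling. Ahr-null male replicate 2, which stood apart for the group, had the lowest Mup20 of the 3 Ahr-null males. Without Ahr-null female replicate 1, the library with the highest Mup20 of its group and the most neural transcripts, the female value was 1.76.

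In males, 9 of the 13 rows were lower with no overlap between the genotypes, where 7.34% of all tested genes were, and Mup14, Mup16, Mup17 and Mup20 overlapped. In females, 12 rows were lower and 1 (Mup20) was higher with no overlap, where 9.86% of all tested genes were lower and 9.22% higher. Since the rows were chosen on this contrast, nothing is read from these counts. The median log2 fold change over all tested genes was 2e-04 in males and 0.06 in females.

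**Figure D2:**
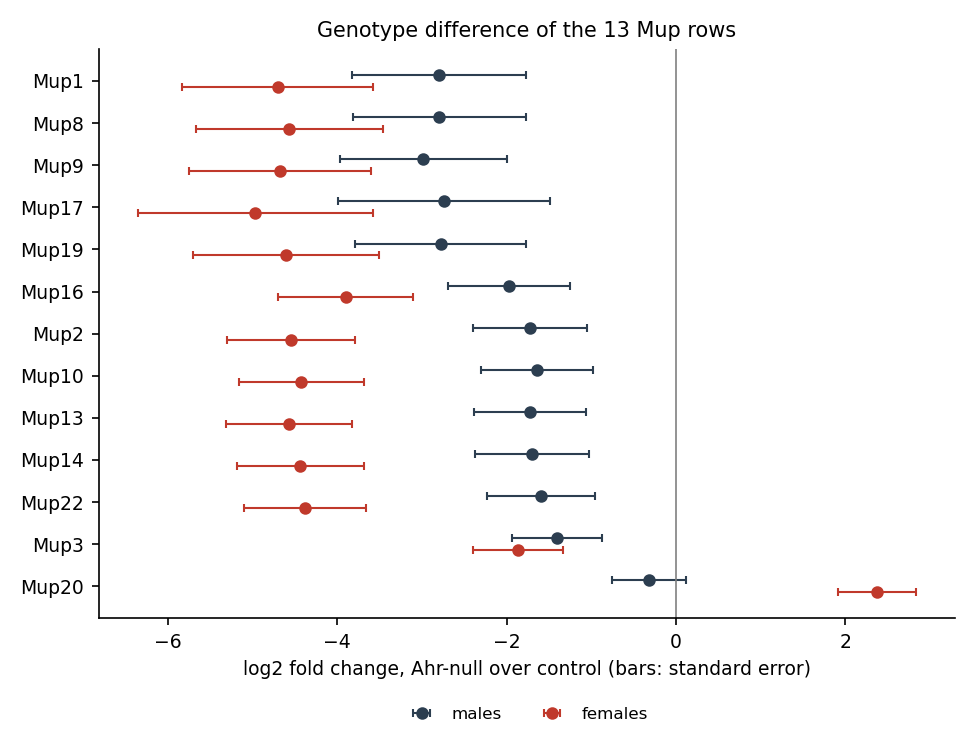
Fitted log2 fold change of Ahr-null over control for each of the 13 Mup rows, in males and in females, with standard errors. The 12 rows of the group lie between -4.96 and -1.40, and Mup20 lies at -0.32 in males and 2.37 in females.

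The make-up of the Mup counts differed between the genotypes. Mup20 held 41.0, 10.4 and 48.8% of the counts of the 13 rows in Ahr-null males, against 6.17, 11.02 and 12.7% in control males. It held 63.2, 54.8 and 39.0% in Ahr-null females, against 1.17, 2.35 and 0.704% in control females. The genotypes overlapped in males through Ahr-null male replicate 2 and lay far apart in females. Mup3 held 31.5, 38.4 and 18.6% of the group sum in Ahr-null females, against 6.99, 6.23 and 3.90% in control females. In males, Mup3 held 8.51, 8.25 and 14.5% of the group sum in Ahr-null livers and 4.68, 6.68 and 8.997% in control livers.

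**Figure D3:**
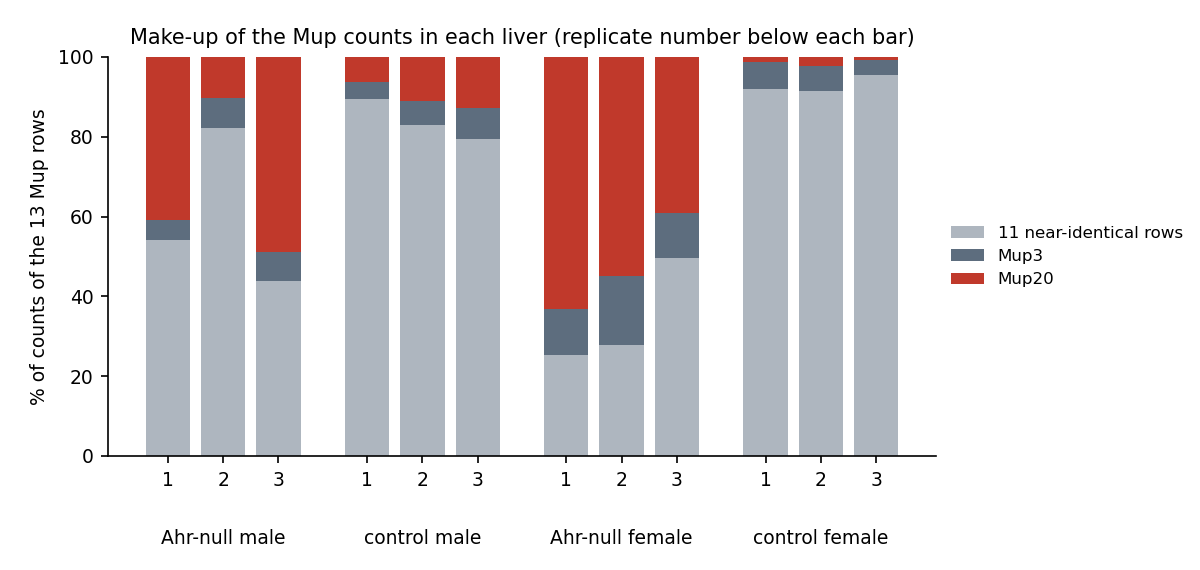
Percent of the counts of the 13 Mup rows that fell on the 11 near-identical rows, on Mup3 and on Mup20, one bar per liver. Mup20 takes 39.0 to 63.2% in Ahr-null females and 0.704 to 2.35% in control females, and Ahr-null male replicate 2 resembles the control males.

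Levels of different genes were set side by side per kilobase of transcript, the transcripts being 861 to 984 bases long. In Ahr-null males Mup20 stood highest, at 2292 ± 625 CPM per kilobase, and the next, Mup22, had 1146 ± 948, so that their SD ranges overlapped. In Ahr-null females Mup20 again stood highest, at 429 ± 274 CPM per kilobase, ahead of Mup3 at 94.7 ± 33.7 and Mup22 at 53.2 ± 37.5. In control males Mup20 had 2862 ± 407 CPM per kilobase, below Mup22 at 3458 ± 1365 and Mup14 at 3400 ± 1417 by less than their spread. In control females Mup20 was the lowest row, at 82.9 ± 19.1 CPM per kilobase, not beyond the spread of Mup16 at 89.4 ± 28.7, while Mup22 had 1105 ± 323. Among the rows compared here, Mup20 thus had the highest mean in both Ahr-null groups and the lowest in control females. Its lead in Ahr-null males and its last place in control females were within the spread. The further Mup rows of the file were not part of this comparison.

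The near-identical rows did not keep a fixed ratio to each other. Mup1 had 14.2, 49.9 and 7.80% of the counts of Mup10 in Ahr-null males, against 95.1, 75.3 and 58.0% in control males. The same ratio was 54.3, 52 and 28.8% in Ahr-null females, against 45.4, 28.3 and 57.5% in control females. The genotypes did not overlap in males and did in females. The Mup2 to Mup10 ratio stayed between 82.7 and 105%, and the Mup8 to Mup1 ratio between 99.5 and 116%, over the 12 libraries. These pairs were picked after their values were seen. Over the 12 libraries the log2 CPM of the 12 group rows correlated with each other at Pearson's r of 0.885 to 1.0 over 66 pairs, and Mup20 correlated with them at 0.198 to 0.556. With the group means removed, the ranges were 0.757 to 1.0 and -0.06 to 0.183. All points come from the same 12 libraries and near-identical rows may share reads.

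Other hepatocyte genes were not lower in Ahr-null livers as a sum. Summed over 11 hepatocyte markers, such as Alb and Ttr, the livers had 29242 to 52437 CPM in Ahr-null males, against 25583 to 33452 CPM in control males. Females had 31073 to 86695 CPM in Ahr-null livers, against 26044 to 30372 CPM in control livers. The ranges overlapped in males, and the Ahr-null females lay above the control females. None of the 11 markers was at 0 in every library. Of the other cell types, 8 cholangiocyte markers summed to 89.3 to 127 CPM in Ahr-null males, against 54.4 to 88.8 CPM in control males, and to 73.8 to 275 CPM in Ahr-null females, against 50.7 to 141 CPM in control females. The cholangiocyte sums did not overlap in males and did in females. The 10 Kupffer cell markers summed to 319 to 488 CPM in Ahr-null males, against 284 to 346 CPM in control males, and to 431 to 577 CPM in Ahr-null females, against 471 to 625 CPM in control females. The Kupffer cell ranges overlapped in both sexes, as did those of 9 endothelial and 9 stellate cell markers. Their part in the Mup differences was not tested. The share of counts on 13 mitochondrially encoded genes was 30.4 to 52.7% in Ahr-null males and 46.7 to 57.3% in control males, and 39.8 to 59.8% in Ahr-null females and 56.5 to 69.8% in control females. With those genes left out of library size and scaling, the group sum differed by -2.34 in males and -4.23 in females on the log2 scale.

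Males had more Mup RNA than females in both genotypes. The group sum was higher in males by 3.96 on the log2 scale in Ahr-null livers and by 2.05 in control livers, 15.5-fold and 4.15-fold. Mup20 was higher in males 5.99-fold in Ahr-null livers and 34.9-fold in control livers, as ratios of geometric means. Every male was above every female for 12 of the 13 rows in Ahr-null livers, all except Mup17, where 4.83% of tested genes were, and for 13 of 13 rows in control livers, where 9.38% were.

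In Ahr-null livers, 5 of the 13 rows passed edgeR's quasi-likelihood test at an adjusted p under 0.05, where 0.227% of all genes were called higher in males. The log2 fold change, male over female, was 4.54 ± 0.74 for Mup10, 4.71 ± 0.75 for Mup13, 4.75 ± 0.76 for Mup14, 4.70 ± 0.76 for Mup2 and 4.43 ± 0.72 for Mup22, with adjusted p of 0.0182 to 0.0201 by the same test. These are 5 of the near-identical rows and may share reads, so they are not 5 separate findings. Mup20 had 2.42 ± 0.46 (adjusted p = 0.0549), which passed under 8 of 24 alternatives, and Mup3 had 2.74 ± 0.55 (adjusted p = 0.0712), and the 6 other rows had adjusted p of 0.0712 to 0.268. With the 12 group rows merged into a single row before the edgeR fit, its log2 fold change was 4.26 ± 0.77 (adjusted p = 0.0439). DESeq2 called 13 of 13 rows, limma-voom 6, and limma on the authors' values 6. The calls depend on single livers: 0 rows were called without control male replicate 2, control female replicate 1, control female replicate 2, Ahr-null male replicate 2, Ahr-null female replicate 2 or Ahr-null female replicate 3. There were 3 without control male replicate 3, and 2 without control female replicate 3. Leaving out Ahr-null female replicate 1 gave 7, as did leaving out both libraries with neural transcripts. The direction held in all of these, and over all alternatives the log2 fold change of Mup10 ran from 3.62 to 5.32 and its adjusted p from 1.42e-10 to 0.0839.

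In control livers, 1 of the 13 rows passed the test, where 0.198% of all genes were called higher in males. This was Mup20, with a log2 fold change of 5.11 ± 0.52 (adjusted p = 5.52e-04 by edgeR's quasi-likelihood test), higher in 3 of 3 males than in any female. It stayed past the threshold under each alternative tried, with adjusted p of 9.86e-30 to 0.0150 and log2 fold changes of 5.003 to 5.44. Mup3 had 2.28 ± 0.54 (adjusted p = 0.161) and the 11 near-identical rows had 1.65 to 2.61 (adjusted p of 0.544 to 0.878). Mup3 was called as well by DESeq2 (adjusted p = 0.00132), with library size alone (adjusted p = 0.0183 by edgeR), without Ahr-null male replicate 2 (adjusted p = 0.0313 by edgeR) and without Ahr-null female replicate 1 (adjusted p = 0.0483 by edgeR).

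**Figure D4:**
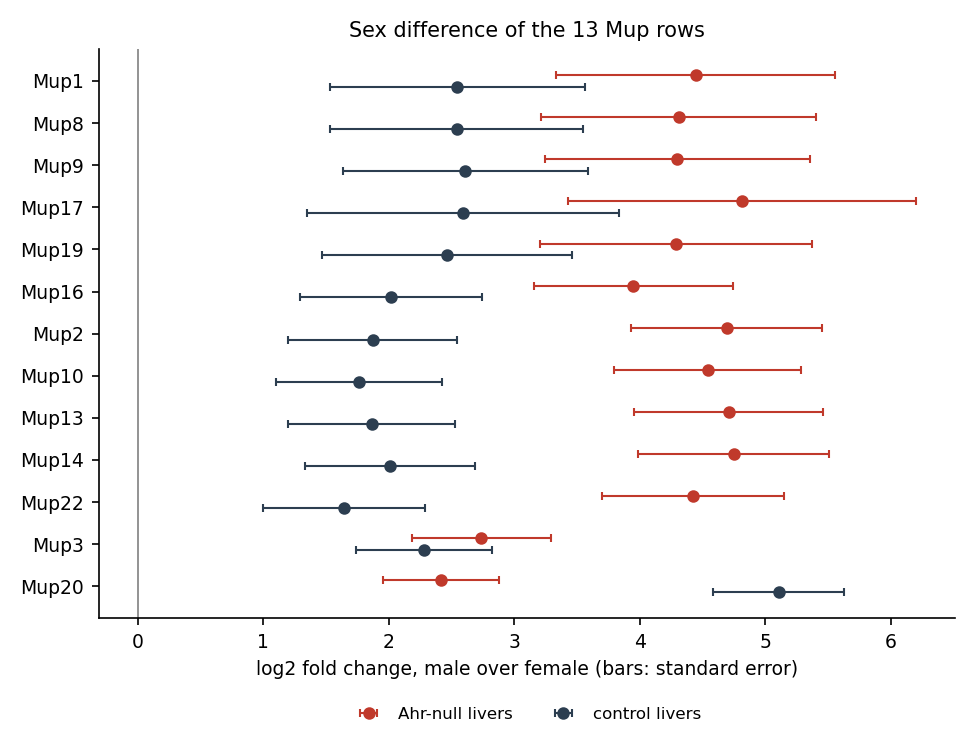
Fitted log2 fold change of male over female for each of the 13 Mup rows, in Ahr-null and in control livers, with standard errors. All 13 rows are positive in both genotypes, and the order of the genotypes turns at Mup20, which has 2.42 in Ahr-null and 5.11 in control livers.

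Whether the genotype difference itself depended on sex was tested as the interaction, the male minus the female log2 fold change of Ahr-null over control. By edgeR's quasi-likelihood test, 0 of the 13 rows passed at an adjusted p under 0.05, where 0.00733% of genes did, and 6 had an unadjusted p under 0.05. Mup20 had -2.69 ± 0.63, the only negative value among the 13 rows (adjusted p = 0.836 by edgeR). DESeq2 called it (adjusted p = 0.0104) as its 1 call among the 13 rows. Mup10, Mup13, Mup14, Mup2 and Mup22 had 2.74 to 2.84 (adjusted p = 0.883 by edgeR), and Mup3 had 0.46 ± 0.73. Without Ahr-null male replicate 2 the value turned negative for Mup1, Mup3, Mup8, Mup9, Mup17 and Mup19, at -1.79 to -0.45. Limma-voom and limma on the authors' values called 0 rows, with 6 at an unadjusted p under 0.05 each. A difference between the sexes in the genotype effect of the Mup rows was therefore not established over all genes tested.

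The file holds 9 further rows of the family, which are not among the 10 symbols. Mup7, Mup11, Mup12, Mup15 and Mup18 averaged log2 fold changes of -3.36 to -2.65 over the sexes, within the range of the 12 group rows. Mup4 had -1.29 and Mup5 had -1.81, and Mup6 did not pass the filter on low counts. Mup21 had -0.90, and was higher in males in Ahr-null livers by 3.65 (adjusted p = 0.0170) and in control livers by 4.23 (adjusted p = 0.00479), by edgeR. The interaction was negative for Mup4 (-1.75), Mup5 (-1.56) and Mup21 (-0.58), as for Mup20. It was positive for Mup7, Mup11, Mup12, Mup15 and Mup18, at 1.09 to 2.30. None of these was called by edgeR.

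Genes that act upstream of Mup transcription, or share its sex bias or its protein fold, were taken from lists. Each was tested for the genotype difference averaged over the sexes, where 1.06% of all genes were called. The lists were chosen with earlier results of these data known, so calls of their genes are not independent of that choice. Of 12 growth hormone signalling genes, 0 were called by edgeR (0 at an unadjusted p under 0.05), and likewise 0 by DESeq2, limma-voom and limma on the authors' values. Their median log2 fold change was -0.41, against 0.04 over all genes. Within each sex edgeR also called 0. In females 11 of the 12 were negative, the median was -0.54, and 3 had an unadjusted p under 0.05 by edgeR. In males 6 were negative, the median was 0.03, and 0 had such a p. Ghr, the growth hormone receptor, had -0.42 ± 0.21, and Stat5b, the transducer that carries the male pattern, had 0.01 ± 0.17. Socs2, a feedback inhibitor induced by STAT5, had -0.69 ± 0.35, and Cux2, a female-specific repressor, had -1.06 ± 0.54.

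Of 14 liver transcription factors, 0 were called by edgeR (6 at an unadjusted p under 0.05), 3 by DESeq2, and 0 by limma-voom and by limma on the authors' values. The smallest adjusted p was that of Nr1i3, the constitutive androstane receptor, with -1.83 ± 0.45 (adjusted p = 0.0798 by edgeR). Cebpb had -0.85 ± 0.23, Foxa3 had 0.59 ± 0.17 and Foxa1 had -0.75 ± 0.28. Nr1i3, Cebpb and Foxa3 were the 3 called by DESeq2. Without the 2 libraries with neural transcripts, edgeR called 4 of the 14, Nr1i3 (adjusted p = 0.0112) and Cebpb (0.0280) among them. When Ahr-null female replicate 1 alone was left out it called 5, with Nr1i3 (adjusted p = 0.0176), Cebpb (0.0151) and Foxa1 (0.0486) among them. Zhx2, a regulator of Mup levels among mouse strains, had -0.16 ± 0.28.

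Of 15 other genes known as male-biased in mouse liver, 0 were called by edgeR (6 at an unadjusted p under 0.05), 2 by DESeq2, 1 by limma-voom and 1 by limma on the authors' values. Their median was -0.04 averaged over the sexes, -0.30 in males and 0.13 in females. Cyp2d9, a testosterone hydroxylase, had -0.97 ± 0.22 (adjusted p = 0.0589 by edgeR). Slco1a1, an organic anion transporter, had -1.35 ± 0.43. Both were negative in each sex. Elovl3, a fatty acid elongase, had -0.88 ± 0.35, the average of 0.55 ± 0.45 in males and -2.32 ± 0.54 in females. Cyp2d9 was called by the other 3 tools, and by edgeR without Ahr-null female replicate 1 (adjusted p = 0.0164), without Ahr-null male replicate 2 (0.0320) and without the 2 libraries with neural transcripts (0.0319). Slco1a1 was called by DESeq2 (adjusted p = 0.0407) and, at -1.87, by edgeR without Ahr-null male replicate 2 (adjusted p = 0.0296). For sex, 7 of 15 were called higher in males in Ahr-null livers, where 0.227% of all genes were, and 8 of 15 in control livers, where 0.198% were. DESeq2 called 10 and 10, limma-voom 7 and 7, and limma on the authors' values 7 and 9. In Ahr-null livers edgeR called 3 without control female replicate 1, Ahr-null male replicate 2 or Ahr-null female replicate 2. It called 4 there when Ahr-null female replicate 3 was left out. In control livers it called 5 without any one of the 3 control females and 11 without Ahr-null male replicate 2. A difference between the genotypes in these counts was not tested.

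Of 17 tested genes known as female-biased, 3 were called by edgeR, 2 lower and 1 higher. Sult3a1, a sulfotransferase, had a log2 fold change of -5.27 ± 0.69 (adjusted p = 0.00741 by edgeR). Sult2a1, another, had -3.06 ± 0.47 (adjusted p = 0.0144 by edgeR). In females Sult2a1 had -4.96 ± 0.46, with means of 1.12 CPM in Ahr-null and 34.4 CPM in control livers. Its male counts were 1, 1 and 4 in Ahr-null and 0, 4 and 5 in control livers, so its male part rests on few reads. Nipal1 had 2.04 ± 0.32 (adjusted p = 0.0146 by edgeR). Each kept its direction without any one library, but not each its call. The call of Sult3a1 was lost without control male replicate 3 (adjusted p = 0.218 by edgeR). That of Sult2a1 was lost without control male replicate 2 or 3, control female replicate 1 or 2, or Ahr-null male replicate 1 or 3 (adjusted p of 0.0504 to 0.105 by edgeR). That of Nipal1 was lost without control male replicate 2, control female replicate 1 or 3, or Ahr-null male replicate 1 or 3 (adjusted p of 0.0648 to 0.0741 by edgeR). Sult3a1 averaged 0.0368 ± 0.0637 CPM in Ahr-null females and 72.5 ± 17.3 CPM in control females, while its male means were 0.169 CPM in Ahr-null and 0.153 CPM in control livers. It was at 0 in Ahr-null female replicates 1 and 2, so its fitted fold change depends on the prior count. Its interaction, 10.39 ± 1.24 (adjusted p = 0.0202), was the 1 called by edgeR in the whole table, while limma-voom called 1, limma on the authors' values 4 and DESeq2 20, each with Sult3a1 among them. By edgeR that call was kept without control male replicate 1, control male replicate 3 or Ahr-null female replicate 1 and lost without each of the other 9 libraries (adjusted p of 0.0655 to 0.464). Female bias was called for 1 of 17 genes in Ahr-null livers, where 0.0513% of all genes were called lower in males, and for 8 of 17 in control livers, where 0.154% were. DESeq2 called 6 in Ahr-null and 10 in control livers, limma-voom 0 and 7, and limma on the authors' values 1 and 8. With 1 library left out, when 18 or 19 genes of the list were tested, edgeR called 0 to 2 in Ahr-null livers, 0 except without control male replicate 1 (1) or Ahr-null female replicate 1 (2). In control livers it called 3 to 9, and 5 or fewer except without Ahr-null female replicate 1 (9), 2 (8) or 3 (7). A difference between the genotypes in these counts was not tested. Of 9 tested lipocalins other than the Mups, 1 was called, Orm3, an acid glycoprotein, which had -2.89 ± 0.32 (adjusted p = 0.00578 by edgeR). Ptgds had -1.24 ± 0.50, Lcn2 had -0.55 ± 0.36 and Ambp had 0.52 ± 0.32. Without Ahr-null female replicate 1 they had -2.01, -0.72 and 0.28, and without both libraries with neural transcripts -1.81, -0.92 and 0.19. Ptgds was called in both cases (adjusted p = 0.0112 and 0.0152 by edgeR). Over the 5 lists 4 genes were called, and this number rested on the libraries: it was 18 without Ahr-null female replicate 1, where 4.78% of all genes were called, 10 without Ahr-null male replicate 2, where 1.99% were, and 16 without the 2 libraries with neural transcripts, where 3.14% were. It was 2 without control male replicate 2, control male replicate 3, control female replicate 1, Ahr-null male replicate 1 or Ahr-null male replicate 3.

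**Figure D5:**
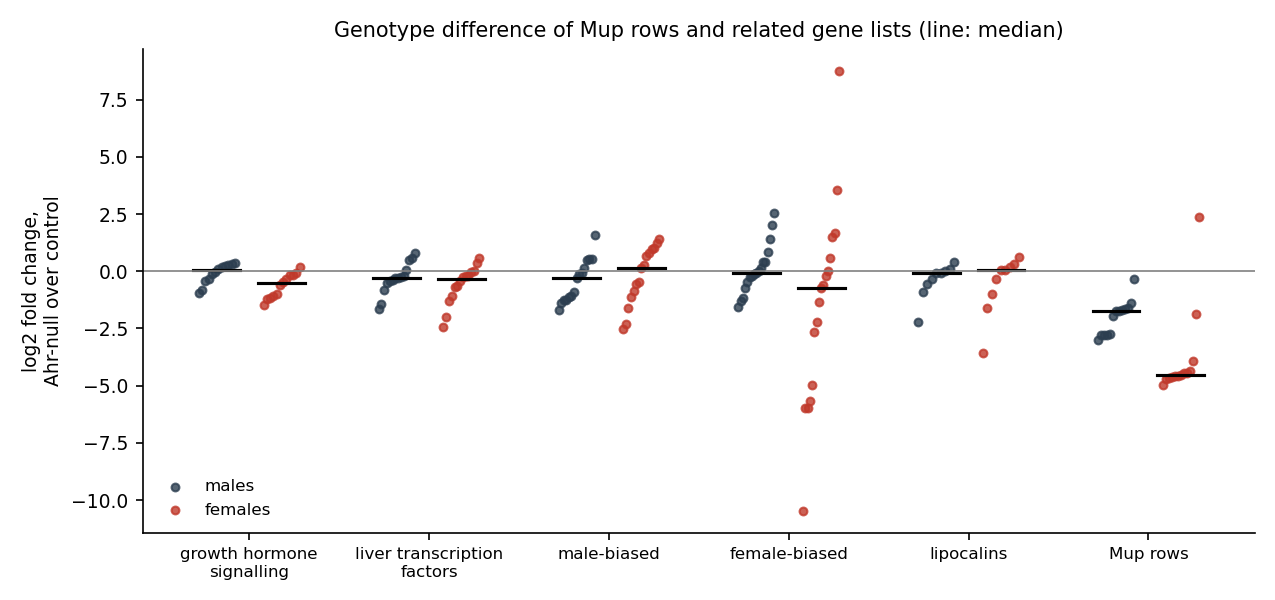
Fitted log2 fold change of Ahr-null over control in males and in females for the tested genes of 5 lists and for the 13 Mup rows, each point a gene and each line a median. The medians of the lists lie between -0.73 and 0.13, that of the Mup rows at -1.72 in males and -4.54 in females, with Mup20 the single Mup row above 0 in females.

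Among 10909 genes compared by Pearson's r of log2 CPM over the 12 libraries, those most like the Mup group sum were Sult2a8, a sulfotransferase (r = 0.971), Pim3, a kinase (0.941), Csrnp1 (0.938), Saa4 (0.935), Eva1a (0.929) and Nox4, an oxidase (0.925). Sult2a8 had 20.8, 143 and 20.9 CPM in Ahr-null males, against 215, 218 and 192 CPM in control males, so that Ahr-null male replicate 2 stood apart in it as well. It averaged 6.96 ± 4.85 CPM in Ahr-null females and 93.1 ± 17.7 CPM in control females. Those most like Mup20 were Cyp2u1 (r = 0.941), Alas2 (0.937), Cyp4a12a, a male-biased fatty acid hydroxylase (0.934), Srd5a1, a steroid reductase (0.926), Dpy19l3 (0.924) and C6, a complement component (0.916). Cyp4a12a averaged 7.11 ± 4.27 CPM in Ahr-null females and 2.74 ± 1.74 CPM in control females, and 87.8 ± 18.04 CPM in Ahr-null males and 209 ± 60.7 CPM in control males. The 2 lists share no gene. These correlations describe 12 libraries in 4 groups and carry no test.

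Of the 20 tested non-member genes within 1 Mb of the Mup span, the nearest 6 were Mup-ps16, Gm12909, Slc31a2, Fkbp15, Snx30 and Slc31a1. Mup-ps16, a Mup pseudogene inside the span, had a log2 fold change of -2.70 over both sexes. It may share reads with the Mup rows, so its genotype difference, like theirs, is given as a description without a test. Gm12909, 946 bases beyond the span, had -0.71. Slc31a1 and Slc31a2, which encode copper transporters, had 0.28 and 0.24, Fkbp15 had 0.02 and Snx30 had -0.21, none of them called.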

How the data were processed

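Gene counts of 12 liver libraries were analysed as the authors deposited them, whole-number counts per gene. A second deposited table holds values after variance stabilisation, near a log2 scale, tied by its label to DESeq2. The submitters' processing notes list build GRCm38, the aligner STAR 2.7.8, trimming by Trim Galore 0.6.5, quality control by FastQC 0.11.8, and DESeq2 1.28.1. Livers were flushed and RNA libraries followed an Illumina protocol, per the labels' protocols. The read counter, its handling of reads with several matches, its strand setting and the read length are not stated in the sources used here.

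Counts were filtered with filterByExpr by the 4 groups, scaled by TMM and fitted with edgeR 4.0.16 in R 4.3.3 (quasi-likelihood, robust, a mean for each group, all 12 libraries, 8 residual degrees of freedom). Tests were two-sided with Benjamini-Hochberg adjustment over all 13641 genes, and a gene was called at an adjusted p under 0.05. The fit was tested on simulated data. DESeq2 1.42.0 and limma 3.58.1 served as alternatives. The Mup group is the sum of counts of 12 rows, compared as mean log2 CPM. No 2 replicates of a group agreed within sampling noise. Replicates were numbered in accession order, so the numbers pair nothing.

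The Mup genes, the other gene lists and the alternatives, including the omission of 2 libraries with neural transcripts, were chosen with earlier results of these data known. The genes named are all Mup rows, the genotype check genes, called list genes with up to 4 more of the smallest p, the 6 genes most like the group sum and like Mup20 (mean log2 CPM of at least 1, prior count 2), and the nearest 6 neighbours. Stat5b and Zhx2 were named beyond that rule, for their roles, with their values known. Omissions of single libraries for the sex counts of the lists, for the Sult3a1 interaction and for single list genes were added after the data were seen.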

Additional observations from a re-analysis of the deposited data

Results flagged for a closer look

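The genotype difference of Sult3a1, a female-biased sulfotransferase from the lists set beside the Mup genes, differed between the sexes by the edgeR quasi-likelihood test of the interaction, 10.39 ± 1.24 on the log2 scale (adjusted p = 0.0202). Its means were 0.0368 CPM in Ahr-null females and 72.5 CPM in control females, and 0.169 CPM in Ahr-null males and 0.153 CPM in control males. Ahr-null female replicates 1 and 2 were at 0 counts, so the size of the fitted value depends on the prior count. The call was lost without each of 9 of the 12 libraries (adjusted p of 0.0655 to 0.464 by edgeR), while the value stayed between 9.83 and 13.03. No Mup row had a called interaction by edgeR.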

How the results depend on the processing

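The lower Mup group in both sexes and the higher Mup20 in females kept their direction under every alternative tried. No paired analysis was possible because the replicate numbers come from accession order alone. In females the group difference was -3.38 with the highest single row in place of the sum. That row was Mup3 in each Ahr-null female and a near-identical row in each control female. The value is therefore not the change of any single gene. With library size alone, which moved the all-gene median to 0.53, Mup20 had 1.57 over both sexes and 0.21 in males. Mup rows called for sex in controls numbered 2 with library size alone and 2 with DESeq2. For sex in Ahr-null livers they numbered 8 with library size alone, 8 at an adjusted p under 0.1, 13 with DESeq2 and 12 with the copies merged, where the single merged row passed and stands for 12. DESeq2 gave 1 call in the interaction. Called list genes numbered 9 with library size alone, 7 at an adjusted p under 0.1, 11 with DESeq2 and 16 without the 2 libraries with neural transcripts. Leaving out 1 library at a time gave ranges of -3.70 to -3.04 for the group over both sexes, -4.61 to -3.74 in females and -3.14 to -1.91 in males. It gave 0.72 to 1.19, 1.76 to 2.698 and -0.57 to -0.18 for Mup20, 1 to 2 rows for sex in controls, 0 to 7 for sex in Ahr-null livers, 0 for the interaction and 2 to 18 list genes. The same omissions gave interactions of -0.77 to 2.49 for Mup1, -0.82 to 2.36 for Mup8, -0.65 to 2.40 for Mup9, -1.79 to 3.12 for Mup17, -0.71 to 2.39 for Mup19 and -0.45 to 0.85 for Mup3, each lowest without Ahr-null male replicate 2. The causes were not tested. With 3 livers a group, reads shared among near-identical copies and a counter that is not stated, single rows of the group have limited meaning.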
